A study of Mus musculus with 14 samples.

Results

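Classical and non-classical monocytes are the main circulating forms of the monocyte, and 10 genes that mark them or the monocyte lineage were followed in mouse blood. The genes were taken by symbol. Ly6c2, Ccr2, Ms4a6c and Lyz2 stood for classical monocytes, Cx3cr1, Ace, Treml4, Fcgr4 and Csf1r for non-classical monocytes, and Cd68 for the lineage as a whole. A probe was taken where its identifier matched the symbol, and 8 of the 10 genes had a tested probe, among 11507 genes so measured in all. No probe matched Ly6c2 or Cd68, so 3 classical and 5 non-classical genes carried the comparison.

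RNA of blood leukocytes was hybridised to 14 one-colour Agilent arrays, and mice of the kinds called SS and SI were compared during cocaine abstinence. The 8 SS mice had met a hostile social environment in the third postnatal week, and the 6 SI mice had been kept in social isolation at that age. By label the SS mice were 4 males and 4 females, and the SI mice were 4 males and 2 females. All mice, SS and SI alike, were conditioned with cocaine at an under-threshold dose of 5 mg/kg in a place preference test, and then passed through extinction and withdrawal. Blood was drawn 24 hours after withdrawal, so neither group was free of cocaine or of early social stress. The labels give neither strain nor age at bleeding. The cells are labelled PBMC, but the protocol names lysis of red cells and neither a gradient nor a sort, which leaves room for neutrophils, platelets and young red cells.

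In the mouse, classical monocytes carry Ly6C and the chemokine receptor Ccr2, which lets them leave the bone marrow and enter inflamed tissue. Non-classical monocytes arise largely from them, carry more of the receptors Cx3cr1 and Csf1r, patrol the vessel wall, and need the nuclear receptor Nr4a1 and signals through Csf1r to persist. The names classical and non-classical are used here for relative abundance, and which cells carried each gene was not measured.

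Levels below are log2 fluorescence signals relative to the brightness of the array, and differences are SS minus SI on the log2 scale. Arrays of the labelled males and labelled females lay on 2 separate slides, so slide and sex label are the same term. Eif2s3y, a Y-linked gene, was measured above background in all 6 labelled females and in 0 of the 8 labelled males, against the sex labels, which are used here as names only. On both slides SI and SS mice also occupied different array columns, so stress group and column cannot be told apart. Between 34.8% and 47.7% of spots were well above background. The arrays of SS labelled females 20 and 21 differed by no more than spot noise (0.109 between them, 0.104 and 0.113 within them, log2 over 165 probes with replicate spots), whereas other pairs of 1 group differed by 0.27 to 0.739. They were averaged and counted as 1 sample, which left 13 samples, of which 3 were SS labelled females. The labels do not say how SS labelled male 01b relates to mouse 1. Their arrays differed by 0.349, more than spot noise, and they were counted as 2 mice. SI labelled male 4 stood apart from its group, with differences of 0.615 to 0.739 from the other SI labelled males. Values of single mice are given in the order SS mice 1, 2, 3 and 01b and SI mice 4, 5, 6 and 7 for the labelled males. For the labelled females the order is SS mice 22 and 23 and the mean of 20 and 21, then SI mice 27 and 28.

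The non-classical genes had lower mean signals in SS than in SI mice, but none passed the test, and the classical genes had no common direction in all mice. Within a slide the classical genes did share one. They differed by 0.026 to 0.61 among labelled males and by -0.79 to -0.31 among labelled females, where both classes were lower in SS. In all mice the 5 non-classical genes differed by between -0.91 and -0.39, with a median of -0.45, whereas the 3 classical genes differed by between -0.28 and 0.27, with a median of -0.032. The median over all 11507 genes was -0.15, and 62.4% of them lay below 0. None of the 8 genes passed the limma test at an adjusted p of 0.05 in all mice, where 8.38% of all genes passed and 0.521% of all genes passed as lower in SS. With limma 0 of the 8 also passed on the slide of the labelled males (0% of all genes), on that of the labelled females (0.435%), and in the test of the difference between the slides (0.0348%). At an unadjusted p under 0.05 they numbered 2 in all mice (Fcgr4 and Csf1r), 0 among labelled males, 4 among labelled females and 0 for the difference, against 2457, 2375, 1855 and 987 of the 11507 genes. In bulk RNA, fewer cells of a type and less RNA per cell cannot be told apart.

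**Figure D1:**
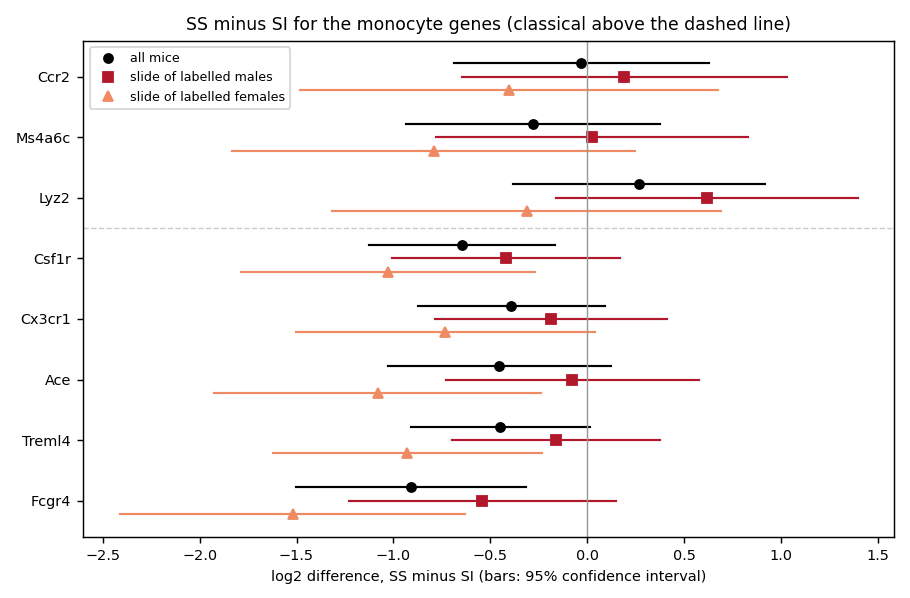
Log2 difference SS minus SI (x axis) for the 8 measured monocyte genes (rows), over all mice and for each slide; points are limma estimates and bars 95% confidence intervals. The 5 non-classical genes lie left of 0 in all 3 comparisons, led by Fcgr4 at -0.91 in all mice, while Lyz2 lies at 0.27.

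Fcgr4 (chromosome 1), an activating Fc receptor for IgG that is abundant on non-classical monocytes, had the lowest value of the 8 genes. Among labelled males it stood at -0.040, -0.41, -0.079 and -0.24 in SS mice, against 0.34, 0.55, 0.29 and 0.23 in SI mice. Among labelled females it stood at -0.0028, -0.78 and 0.66 in SS mice, against 2.06 and 0.90 in SI mice. Every SS mouse lay below every SI mouse of its slide, and SI labelled female 27 was the highest of all. The difference was -0.91 ± 0.28 (SE; 95% interval -1.50 to -0.31; 7 SS and 6 SI samples) in all mice, a ratio of SS to SI of 0.533, at limma adjusted p = 0.0705. Among labelled males it was -0.54 (limma adjusted p = 0.316) and among labelled females -1.52 (0.0812). The difference between the slides was 0.98 ± 0.52 (SE, limma adjusted p = 0.48). In all mice Fcgr4 lay at the 2.16th percentile of the differences of all genes. The adjusted p in all mice fell under 0.05 in 3 other settings: 0.0347 with normexp background and quantile scaling, 0.0415 over probes above background on all arrays, and 0.0478 with a trended, robust variance. It was higher in others, at 0.227 with no filter on dim probes and 0.209 in the authors' deposited value table (difference -0.62, and -0.31 among labelled males). Without SI labelled female 27 the difference was -0.65 in all mice (limma adjusted p = 0.169) and -0.94 among labelled females (0.438).

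Csf1r (chromosome 18), the receptor of the growth factors Csf1 and Il34 that monocytes and macrophages live on, followed the same order. Its signal was 3.34, 2.78, 3.22 and 3.08 in SS labelled males, against 3.40, 3.65, 3.59 and 3.46 in SI labelled males. In labelled females it was 3.36, 2.68 and 3.48 in SS mice, against 4.75 and 3.65 in SI mice. SS mice lay below SI mice on both slides without overlap, by a narrow gap among labelled males. The difference was -0.65 ± 0.22 (SE, limma adjusted p = 0.117) in all mice, with -0.42 among labelled males and -1.03 among labelled females. Without SI labelled female 27 the value of Csf1r was -0.43 in all mice and -0.48 among labelled females, and without SI labelled female 28 the value among labelled females was -1.58. In the authors' deposited value table it was -0.41 in all mice and -0.68 among labelled females. The gene has 2 further probes, which disagreed with this brightest one among labelled males. They gave -0.35 and 0.043 in all mice, 0.030 and 0.61 among labelled males, and -0.98 and -0.91 among labelled females.

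Treml4 (chromosome 17), a TREM-like receptor of non-classical monocytes and some splenic phagocytes, separated the groups on 1 slide only. It measured -1.74, -2.42 and -1.48 in SS labelled females, against -0.74 and -1.17 in SI labelled females. Among labelled males the groups overlapped, at -1.47, -1.84, -1.86 and -1.58 in SS mice and -1.35, -1.27, -1.64 and -1.84 in SI mice. The difference was -0.45 ± 0.21 (SE, limma adjusted p = 0.283) in all mice, -0.16 among labelled males and -0.93 among labelled females, and 0.77 ± 0.40 between the slides (limma adjusted p = 0.477). In the authors' deposited value table Treml4 differed by -1.02 in all mice and -2.29 among labelled females, and did not pass there either.

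Ace (chromosome 11), angiotensin-converting enzyme, is carried on the surface of non-classical monocytes. It read -2.18, -2.44 and -1.59 in SS labelled females, against -0.78 and -1.20 in SI labelled females, with no overlap. In labelled males the values were mixed, at -1.61, -2.12, -1.68 and -1.44 in SS mice and -0.98, -1.42, -2.16 and -1.98 in SI mice. The difference was -0.45 ± 0.27 (SE, limma adjusted p = 0.39) in all mice, -0.078 among labelled males and -1.08 ± 0.39 among labelled females (limma adjusted p = 0.187). In the authors' deposited value table Ace differed by -1.07 in all mice and -2.47 among labelled females, and did not pass. Without SI labelled female 27 it was -0.29 in all mice. Among labelled males the sign turned without SI mouse 4 (0.14) or without SS mouse 2 (0.058).

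Cx3cr1 (chromosome 9), the receptor of the membrane-bound chemokine fractalkine, had the smallest difference of the 5 in all mice. Its level was 0.77, 0.38, 0.46 and 0.73 in SS labelled males and 0.42, 1.10, 0.81 and 0.76 in SI labelled males. It was 0.72, -0.20 and 0.55 in SS labelled females and 1.55 and 0.62 in SI labelled females. SS and SI mice overlapped on both slides. The difference was -0.39 ± 0.22 (SE, limma adjusted p = 0.375) in all mice, with -0.19 among labelled males and -0.73 among labelled females. Without SI labelled female 27 it was -0.21 in all mice and -0.27 among labelled females, and without SI labelled female 28 it was -1.20 among labelled females. Among labelled males it was -0.078 without SI mouse 5 and -0.31 without SI mouse 4. In the authors' deposited value table Cx3cr1 differed by -0.23 in all mice and -0.47 among labelled females. A second probe gave 0.15 among labelled males and -0.85 among labelled females.

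Counted together, 2 of the 5 non-classical genes (Fcgr4 and Csf1r) had every SS sample below every SI sample on the slide of the labelled males, where 1.78% of all genes did. On the slide of the labelled females 4 of 5 did so, all but Cx3cr1, where the 3 against 2 samples put 21.4% of all genes in that state. Fcgr4 and Csf1r did so on both slides, as did 0.852% of all genes. None of the 3 classical genes did so on either slide. Of 25 further classical genes, taken up below, 11 did so on the slide of the labelled females and 0 on that of the labelled males.

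**Figure D2:**
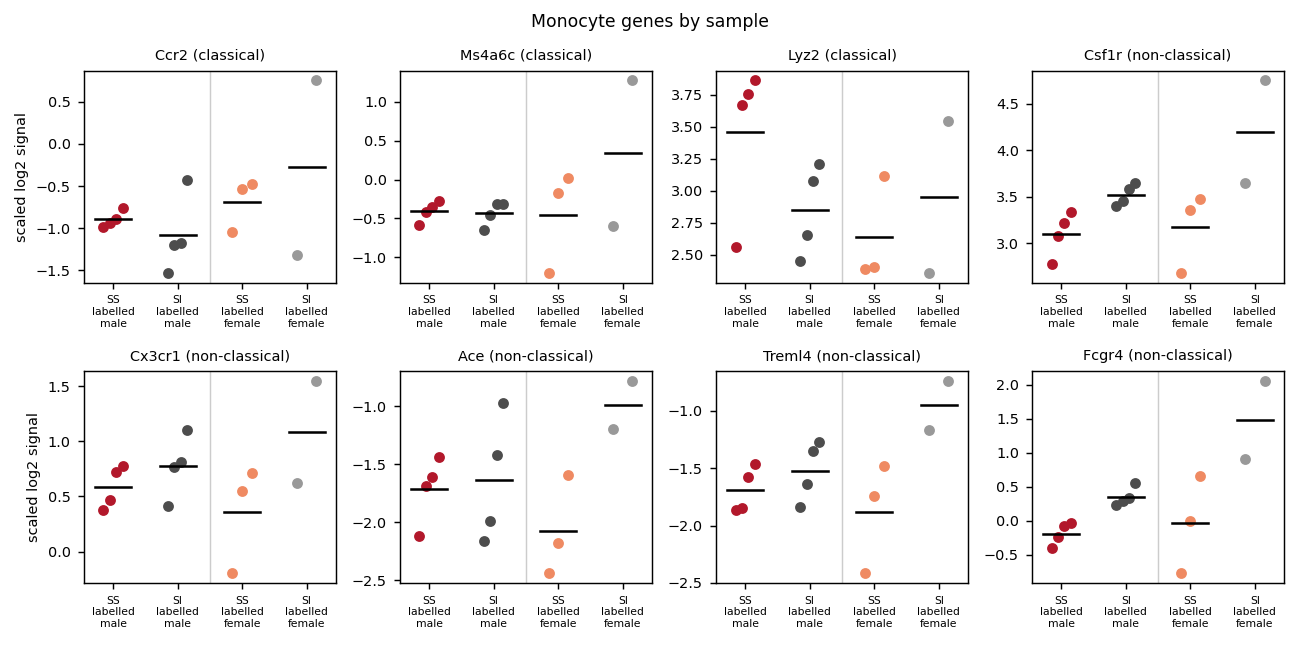
Scaled log2 signal (y axis) of the 8 measured monocyte genes by sample; points are samples, bars are group means, and the vertical line parts the slide of the labelled males from that of the labelled females. In the Fcgr4 panel the SS labelled males average -0.19 and the SI labelled males 0.35, with no overlap, while in the Ms4a6c panel they overlap at -0.41 and -0.44.

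Proximal promoters of the non-classical genes are shown as a description only. They are RefSeq sequences of build GRCm38.p6, from 250 bases before the gene start to 50 after it. All of the 10 genes but Csf1r, 9 in number, matched that table, so Csf1r is not shown. Capitals mark the letters GAGGAA on either strand (TTCCTC on the strand printed), a core sequence recognised by PU.1, the Ets factor of myeloid cells. Fcgr4 lies at chr1:171018676-171018975 (plus strand), Treml4 at chr17:48264045-48264344 (plus), the first of the Ace promoters at chr11:105967698-105967997 (plus), and Cx3cr1 at chr9:120068247-120068546 (minus).
Fcgr4: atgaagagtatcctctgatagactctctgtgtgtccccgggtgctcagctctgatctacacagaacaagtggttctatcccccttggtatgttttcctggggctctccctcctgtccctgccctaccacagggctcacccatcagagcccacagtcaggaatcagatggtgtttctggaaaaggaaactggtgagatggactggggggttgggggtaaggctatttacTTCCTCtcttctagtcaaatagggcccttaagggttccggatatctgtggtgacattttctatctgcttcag
Treml4: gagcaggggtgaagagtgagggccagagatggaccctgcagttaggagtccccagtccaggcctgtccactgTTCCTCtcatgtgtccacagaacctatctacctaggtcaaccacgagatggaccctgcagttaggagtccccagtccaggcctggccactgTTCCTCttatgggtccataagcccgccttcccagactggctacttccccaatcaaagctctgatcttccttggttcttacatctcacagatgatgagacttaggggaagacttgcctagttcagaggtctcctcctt
Ace: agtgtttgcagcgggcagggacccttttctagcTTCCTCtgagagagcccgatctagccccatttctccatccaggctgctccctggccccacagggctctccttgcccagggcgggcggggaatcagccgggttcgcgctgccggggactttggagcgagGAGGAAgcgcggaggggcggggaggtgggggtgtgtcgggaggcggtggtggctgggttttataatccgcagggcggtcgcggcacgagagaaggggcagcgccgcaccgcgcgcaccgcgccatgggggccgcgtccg
Cx3cr1: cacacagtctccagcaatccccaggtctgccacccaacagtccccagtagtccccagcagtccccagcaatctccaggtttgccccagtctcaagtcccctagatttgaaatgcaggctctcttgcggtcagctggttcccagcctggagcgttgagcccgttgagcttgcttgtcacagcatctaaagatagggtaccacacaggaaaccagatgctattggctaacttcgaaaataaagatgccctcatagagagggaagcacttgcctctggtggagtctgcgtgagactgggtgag

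Among the non-classical genes GAGGAA occurred 1 time in the Fcgr4 window, 2 times in Treml4, 2 times in the first Ace window, and 0 times in the second Ace window and in Cx3cr1. Among the classical genes it occurred 2 times in each of the 2 windows of Ly6c2 and 0 times in Ccr2, Lyz2 and Ms4a6c, and the window of Cd68 held it 2 times. The letters were thus found in some genes of both classes. Of 32851 promoters of the same length, 28.3% held it on 1 strand or the other. The letters AAAGGTCA, the element bound by Nr4a1 as a monomer, were in 0 of the members' windows and in 1.51% of all promoters. A match of letters is a description of the window, and binding was not measured.

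Of the classical genes, Lyz2 (chromosome 10), lysozyme of granules in monocytes, macrophages and neutrophils, had the largest positive difference. It measured 3.67, 3.76, 2.56 and 3.87 in SS labelled males, against 3.08, 3.21, 2.65 and 2.45 in SI labelled males. In labelled females it measured 3.12, 2.39 and 2.41 in SS mice and 3.55 and 2.36 in SI mice. SS labelled males 1, 2 and 01b lay above all SI labelled males, SS labelled male 3 below 3 of the 4, and labelled females overlapped. The difference was 0.27 ± 0.30 (SE, limma adjusted p = 0.655) in all mice, 0.61 ± 0.36 on the slide of the labelled males (limma adjusted p = 0.314) and -0.31 ± 0.46 on that of the labelled females (limma adjusted p = 0.812). Without SI labelled female 27 the last value was 0.28.

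Ccr2 (chromosome 9), the receptor by which classical monocytes follow the chemokine Ccl2, did not separate the groups. It read -0.94, -0.89, -0.99 and -0.76 in SS labelled males and -1.53, -0.43, -1.20 and -1.18 in SI labelled males. It read -0.53, -1.04 and -0.48 in SS labelled females, and 0.76 and -1.31 in SI labelled females. The 2 SI labelled females lay on opposite sides of all SS labelled females. The difference was -0.032 in all mice (SE 0.30; 95% interval -0.69 to 0.63; limma adjusted p = 0.962), 0.19 among labelled males and -0.40 among labelled females. The sign of the first and last values turned without SI labelled female 27 (0.31 and 0.63).

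Ms4a6c (chromosome 19), a membrane protein of the MS4A family found on monocytes, also overlapped on both slides. It stood at -0.42, -0.35, -0.59 and -0.28 in SS labelled males and -0.46, -0.32, -0.32 and -0.65 in SI labelled males. It stood at 0.017, -1.20 and -0.17 in SS labelled females, and 1.28 and -0.59 in SI labelled females. The difference was -0.28 ± 0.30 (SE, limma adjusted p = 0.638) in all mice, 0.026 among labelled males and -0.79 among labelled females. Without SI labelled female 27 it was 0.057 in all mice and 0.14 on the slide of the labelled females.

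For Ly6c2, the defining gene of classical monocytes, no matched probe was present. Its near-identical neighbour Ly6c1 had 2 probes, which may take up RNA of both genes, so their values are uncertain as a measure of either. The brighter Ly6c1 probe read 2.29, 1.61 and 2.63 in SS labelled females, against 3.69 and 3.55 in SI labelled females, a difference of -1.44 ± 0.33 (SE, limma adjusted p = 0.0592). In labelled males it averaged 2.17 in both groups, and in all mice it differed by -0.54 ± 0.27 (limma adjusted p = 0.316).

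Within each mouse, the mean of the 3 classical genes was set against that of the 5 non-classical genes, each gene centred on its mean over the samples. This difference between gene classes was 0.17, 0.68, -0.086 and 0.43 in SS labelled males, against -0.41, -0.10, -0.20 and -0.32 in SI labelled males. All SS labelled males lay above all SI labelled males, though the lowest SS value and the highest SI value were only narrowly apart. It was 0.43, 0.28 and -0.14 in SS labelled females and 0.088 and -0.81 in SI labelled females, where the groups overlapped. The group means were 0.30 ± 0.33 (SD, n = 4) in SS and -0.26 ± 0.13 (n = 4) in SI labelled males, and 0.19 ± 0.30 (n = 3) in SS and -0.36 ± 0.64 (n = 2) in SI labelled females. For these genes SS exceeded SI by 0.55 on both slides and in all mice. The genes were picked with earlier results of these data known, so the value is a description and carries no p. Csf1r entered through its brightest probe alone. The further classical (25) and non-classical (22) genes, taken up below, did not repeat the shift on both slides. Among labelled males mean centred levels were 0.19 and -0.21 in SS, against 0.23 and 0.039 in SI mice, where the non-classical list fell more. Among labelled females they were -0.65 and -0.15 in SS, against 0.15 and 0.57 in SI mice, where the classical list fell slightly more.

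For the members, the parts of the class difference were not the same on the slides. Among labelled males the classical mean differed by 0.28 (SS minus SI) and the non-classical mean by -0.28. Among labelled females they differed by -0.50 and -1.06. Without Lyz2, which neutrophils also make, the class difference was 0.41 in all mice, 0.39 among labelled males and 0.46 among labelled females. On the slide of the labelled females it rested on single mice: 1.01 without SI labelled female 27 and 0.10 without SI labelled female 28, and 1.03 in the authors' deposited value table.

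**Figure D3:**
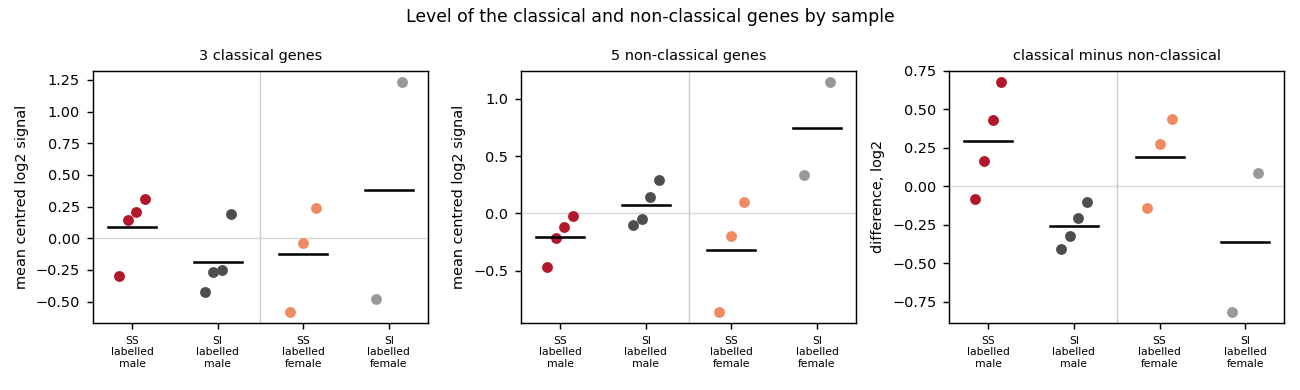
Mean centred log2 signal (y axis) of the 3 classical genes, of the 5 non-classical genes, and their difference, by sample; points are samples, bars are group means and the vertical line parts the slides. In the third panel the SS labelled males run from -0.086 to 0.68 and the SI labelled males from -0.41 to -0.10.

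Across the 13 samples, each centred on its slide, the non-classical genes varied together more closely, by the median pair, than with the classical ones. Single pairs departed from this. Cx3cr1 ran closer to the classical gene Ms4a6c (0.866) than to Ace (0.569) or Treml4 (0.828), though not than to Csf1r (0.915). The 10 pairs of non-classical genes had Pearson correlations of 0.569 to 0.967, with a median of 0.862. The 15 pairs of a classical with a non-classical gene had 0.144 to 0.866, with a median of 0.549, and the 3 classical pairs had 0.612 to 0.842. Pairs share arrays, and SI labelled female 27 was the highest sample of its slide for all 8 genes. Without it the medians were 0.769 for non-classical, 0.167 for mixed and 0.477 for classical pairs. The ranges overlapped with that sample and without it. Without it they were 0.352 to 0.939 for non-classical, -0.238 to 0.74 for mixed and 0.477 to 0.632 for classical pairs. Without the 2 samples farthest from the median of 1 gene of the pair, non-classical pairs ran from -0.081 to 0.866. Mixed pairs then ran from -0.426 to 0.687 and classical pairs from 0.443 to 0.618. These correlations include the difference between SS and SI and describe these samples.

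Outside the gene lists used here, the genes whose levels ran closest to the mean of the non-classical genes over the 13 slide-centred samples were Nupr1 (Pearson r = 0.977), Hfe (0.965), Cyp4f16 (0.962), Pparg (0.958) and Ogfrl1 (0.95). Nupr1 encodes a stress-response chromatin protein, Hfe a regulator of iron uptake and Pparg a lipid-sensing nuclear receptor. Closest to the classical mean were Ppt1 (0.944), Msr1 (0.94), Vwa5a (0.929), Ugt1a10 (0.913) and Mcub (0.908). Ppt1 is a lysosomal thioesterase, Msr1 a scavenger receptor of macrophages and Mcub a subunit of the mitochondrial calcium channel. The first 5 genes differed by -0.63 to -0.49 between SS and SI in all mice and the others by -0.30 to 0.0077. None of the 10 passed the limma test.

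Further genes of the same cells came from 4 lists of classical, non-classical and shared phagocyte genes and of ligands. Of 88 listed genes 79 were tested, and 6 passed the limma test in all mice, 4 higher and 2 lower in SS. This is 7.59% of them, near the 8.38% of all genes. Without SI labelled male 4, the mouse that stood apart from its group, 29 passed, and over all tested probes the number that passed was then 3141 of 24045, in place of 1659 with that mouse. The 25 classical genes had a median of -0.31, with 19 below 0. The 22 non-classical genes tested of 24 had a median of -0.53, with 19 below 0, and the 29 shared phagocyte genes tested of 30 had one of -0.53, with 27 below 0. The median over all genes was -0.15, and the medians of these 3 lists and of the non-classical members lay below it.

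Among the further classical genes 1 of 25 passed in all mice. F13a1, the coagulation factor XIII chain of monocytes and platelets, was higher in SS by 1.30 ± 0.28 (SE, limma adjusted p = 0.0134). The largest other differences were those of Chil3, a secreted chitinase-like protein, at -1.74 ± 0.61 (limma adjusted p = 0.127), and Gda, guanine deaminase, at -1.17 ± 0.55 (0.279). On the slide of the labelled females Ifitm6, an interferon-inducible membrane protein, fell by 2.18 on the log2 scale (SE 0.33, limma adjusted p = 0.0307), the 1 gene of the list that passed there. Among labelled males it differed by 0.095, and the difference between the slides was 2.28 ± 0.42 (limma adjusted p = 0.164). The call on Ifitm6 was lost without any 1 of SS labelled males 2 and 01b, SI labelled male 5, SS labelled female 23, the mean of SS labelled females 20 and 21, and SI labelled females 27 and 28, with an adjusted p of up to 0.13. It was also lost in the deposited value table (0.0566) and with no filter on dim probes (0.103).

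Among the further non-classical genes 1 rose and 1 fell in SS. Cd9, a tetraspanin of monocytes and platelets, rose by 1.28 ± 0.25 (SE, limma adjusted p = 0.0104). Nr4a1, the nuclear receptor on which non-classical monocytes depend, fell, and it measured 2.17, 1.72, 2.15 and 2.09 in SS labelled males, against 2.23, 2.70, 2.63 and 3.28 in SI labelled males. In labelled females Nr4a1 measured 1.88, 1.16 and 2.20 in SS mice, against 3.25 and 2.83 in SI mice. SS lay below SI without overlap on both slides. The difference was -0.91 ± 0.23 (SE, limma adjusted p = 0.0303), a ratio of SS to SI of 0.532. The call was lost without any 1 of SS labelled male 2, SI labelled males 5 and 7, SS labelled female 22 and SI labelled females 27 and 28, with an adjusted p of up to 0.0922. It was also lost in 3 other settings, with an adjusted p of up to 0.125. Cd36, a scavenger receptor, had -1.04 ± 0.30 (limma adjusted p = 0.0536) and passed in 6 of 10 other settings. Nr4a1 is also induced in many blood cells on stimulation.

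Of the shared phagocyte genes 1 passed. Lamp2, a lysosomal membrane protein that platelets also carry, rose by 1.01 ± 0.21 (SE, limma adjusted p = 0.0126), and by 0.63 in the authors' deposited value table. Cd14, the co-receptor for bacterial lipopolysaccharide, had -0.90 ± 0.52 (0.382), and Cd33, a sialic acid-binding lectin, had -0.85 ± 0.37 (0.233). Without SI labelled male 4, Cd14 and Cd33 were among those that passed, at -1.34 (limma adjusted p = 0.0366) and -1.14 (0.0231).

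**Figure D4:**
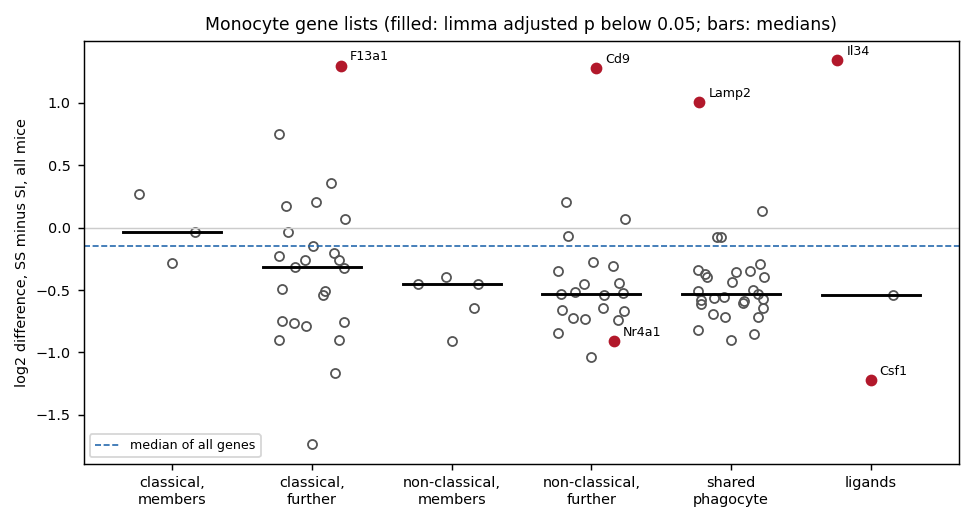
Log2 difference SS minus SI in all mice (y axis) for the tested genes of each list (x axis), with filled points for a limma adjusted p under 0.05, bars for list medians and a dashed line for the median of all genes. The further non-classical and shared phagocyte genes have medians of -0.53, below the all-gene median of -0.15, and the 6 named genes passed.

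The ligands of Csf1r differed in opposite directions. Csf1, a growth factor for cells of the monocyte lineage, stood at -2.09, -1.74, -2.39 and -1.54 in SS labelled males, against -0.82, -1.17, -0.50 and -0.52 in SI labelled males. In labelled females Csf1 stood at -2.62, -2.84 and -1.72 in SS mice, against -1.32 and -0.90 in SI mice. SS was below SI in every comparison of 2 mice of a slide. Csf1 fell by 1.22 on the log2 scale (SE 0.22, limma adjusted p = 0.0104; ratio of SS to SI 0.428), with -1.19 and -1.28 on the slides. It was -2.73 in the authors' deposited value table and -0.93 with normexp background and quantile scaling.

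Il34, the other ligand of Csf1r, rose in SS. It stood at -2.60, -2.90, -3.55 and -2.98 in SS labelled males, against -3.10, -4.37, -4.99 and -3.92 in SI labelled males. In labelled females Il34 stood at -3.34, -2.86 and -3.12 in SS mice, against -4.78 and -4.99 in SI mice. The groups overlapped among labelled males through SI mouse 4 and were apart among labelled females. The difference was 1.35 ± 0.29 (SE, limma adjusted p = 0.0128; ratio of SS to SI 2.54), and 0.69 with normexp background and quantile scaling. Ccl2, the ligand of Ccr2, had -0.54 ± 0.45 (0.534) and was near background on several arrays. The other 6 listed ligands, among them the Cx3cr1 ligand Cx3cl1, were above background on too few arrays to test.

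**Figure D5:**
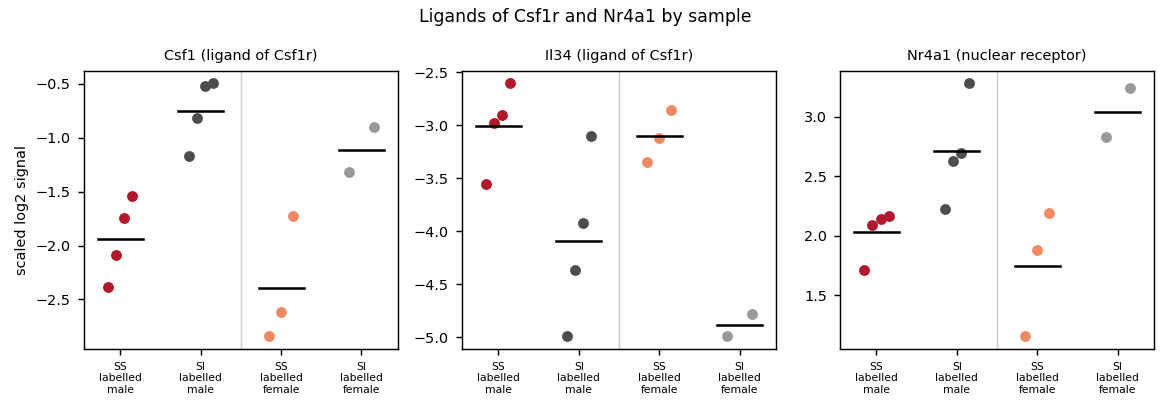
Scaled log2 signal (y axis) of Csf1, Il34 and Nr4a1 by sample; points are samples, bars are group means and the vertical line parts the slides. Csf1 averages -1.94 in SS and -0.75 in SI labelled males, and Il34 -3.01 in SS and -4.09 in SI labelled males.

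Markers of other blood cells moved between the groups as well. In all mice 904 of all 11507 genes passed as higher in SS, among them all 10 platelet genes, each of them measured, with a median of 1.53. Their mean centred level ran from 0.34 to 1.19 in SS and from -1.77 to 0.30 in SI labelled males, and from 0.42 to 0.79 in SS and from -1.37 to -1.07 in SI labelled females. F13a1, Cd9 and Lamp2, the 3 listed monocyte genes other than Il34 that rose, are also known from platelets. Of 13 neutrophil genes 0 passed the limma test in all mice (median -0.80), where 8.38% of all genes passed. At an unadjusted limma p under 0.05 they numbered 0, against 2457 of all 11507 genes. On the slide of the labelled females 5 of 13 passed as lower in SS (median -2.21), as did 26 of all 11507 genes. The level of the 13 neutrophil genes there ran from -1.03 to -0.58 in SS and from 1.43 to 2.43 in SI mice. On the slide of the labelled males their median difference was 0.26. In the limma test of the difference between the slides 3 of 13 passed (Camp, Ngp and Lcn2), as did 4 of all 11507 genes. Among labelled males these 3 were higher in SS, by 1.51, 1.89 and 0.49, and among labelled females all were lower. The part of platelet and neutrophil RNA in the differences of the monocyte genes was not tested.

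In the remaining cell lists 0 genes passed the limma test in all mice, where 8.38% of all genes passed. At an unadjusted limma p under 0.05 there was 1 gene each of the T cell, NK cell, dendritic cell and erythroid lists. Of all 11507 genes 2457 had such a p. The median was -0.79 for 7 NK cell genes, -0.82 for 7 erythroid genes, -0.59 for 10 T cell genes, -0.21 for 7 dendritic cell genes and 0.013 for 8 B cell genes. Of 8 tissue macrophage genes 3 were tested (median -1.02), and the defining markers C1qa, C1qc, Vsig4, Timd4 and Cd163 were above background on too few arrays to test. On the slide of the labelled females, where 21.4% of all genes had every SS sample below every SI sample, so did 7 of 7 NK cell genes, 6 of 7 erythroid genes, 11 of 13 neutrophil genes and 4 of 5 non-classical members. The count was 15 of 22 for the further non-classical genes, 11 of 25 for the further classical genes and 11 of 29 for the shared phagocyte genes. For the other cells it was 2 of 10 T cell genes, 0 of 8 B cell genes, 0 of 7 dendritic cell genes, 1 of 3 tissue macrophage genes and 0 of 10 platelet genes. The part of these cells in the result was not tested.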

How the data were processed

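RNA of 14 blood samples was measured on Agilent one-colour arrays. The deposited scanner files hold processed fluorescence intensity, which Agilent Feature Extraction had background-subtracted and detrended (version 10.7.3.1 per the file headers, 9.1 per the submitters' processing notes), and flags for other spot properties. A value table on the log2 scale was also deposited by the authors, with normalization not given in the sources used here. It served as an alternative. Control spots were left out, and spots of a probe were averaged as log2 intensity. Outlier spots were left out unless the probe had no other spot, in which case they were kept. Each array was scaled by its 75th percentile over the 14526 probes well above background on all 14 arrays. The 24045 probes above background on at least 6 arrays were tested with limma 3.58.1 in R 4.3.3 (files read with data.table, version 1.17.8), two-sided, with Benjamini-Hochberg adjustment over all of them at 0.05. All-mice estimates have the slide as a term, and slide estimates come from a fit with 4 groups. Symbols came from a RefSeq table (26425 of 31063 RefSeq-type probe identifiers matched), and a gene is its brightest tested probe. The design treated 14 arrays as samples, and 13 were used after 2 near-identical arrays were averaged, a choice made after seeing the data. Labels give each array its own mouse number, and whether 01b is a mouse apart from 1 is not stated. Members and lists were chosen with earlier results of these data known. Named genes were all members, list genes that passed or had the 3 largest differences of a list, and the 5 genes most like each class. The fits were tested on simulated data. Alternatives changed scaling, background correction, filter, variance model, probe, row block and samples. Few arrays limit the precision.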

Additional observations from a re-analysis of the deposited data

Results flagged for a closer look

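Lyz2 in SS labelled male 3 stood apart from its group. It measured 2.56 on the scaled log2 scale, against 3.67 for the nearest of the other 3 SS labelled males, and this gap took up 0.85 of the range of the group, above the 95% critical value of Dixon's test for 4 samples. Of 18 groups examined in this way it was the 1 found, and chance gives about 1 in 20. No explanation was tested.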

How the results depend on the processing

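No paired analysis was possible because mice of the groups compared share no number. Of the 8 members, 0 passed in all mice, where 1659 of 24045 probes passed. With normexp and quantile 2 passed (Fcgr4, Csf1r), where 1795 of 24045 probes did. Over probes above background on all arrays 1 passed (Fcgr4), where 1699 of 14526 probes did. With trended, robust variances 1 passed (Fcgr4), where 1835 of 24045 probes did. On the slide of the labelled females 1 (Fcgr4) passed with normexp and quantile and 1 over probes above background on all arrays. The share of all probes that passed on that slide in these fits is not given here. Leaving out single samples gave 0 in every comparison. Of the 79 other monocyte genes 6 passed. Over probes above background on all arrays 10 of 72 passed. The count was 4 in the deposited table, 4 with no filter, and 5 to 29 without single samples. Over all probes 1659 passed, and 1699, 1205, 740 and, without SI labelled male 4, 3141 in the fits with 10, 4, 4 and 29. The class difference on the slide of the labelled females was 1.03 in the deposited table and 0.10 to 1.01 without single samples.

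Some members that did not pass changed sign. Ms4a6c among labelled males was -0.15 with the percentile over all probes. Ccr2 in all mice was 0.023 with median scaling, 6.7e-05 with quantile scaling and 1.01 in the deposited table, and 0.30 there on the slide of the labelled females. In that table Ccr2 spanned 3.92 over the arrays, against 2.29 in the scanner values (rho = 0.877). Other probes of Csf1r gave 0.043 in all mice, and 0.030, 0.61 and, averaged over probes, 0.075 among labelled males. That of Cx3cr1 gave 0.15. Without single samples, Ccr2 ranged from -0.25 to 0.31 in all mice, from -1.44 to 0.63 in labelled females and from -0.44 to 1.63 between slides. Ms4a6c ranged from -0.45 to 0.057 in all mice, from -0.046 to 0.085 in labelled males, from -1.73 to 0.14 in labelled females and from -0.12 to 1.75 between slides. Lyz2 ranged from -0.91 to 0.28 in labelled females and Ace from -0.25 to 0.14 in labelled males. The cause was not tested. Csf1, Il34 and F13a1 passed under every alternative, with values of -2.73 to -0.93, 0.69 to 1.57 and 0.66 to 1.41. Cd9 was lost in the deposited table (0.71, limma adjusted p = 0.0564), as was Nr4a1 (-0.50, 0.102, and 0.125 with no filter), and Lamp2 with the percentile over all probes (0.0506) and with no filter (0.0597). With the 14 arrays each as a sample, an alternative added after seeing the data, Fcgr4 had an adjusted p of 0.0642. Probes near background limit what can be said of Ccl2 and the other ligands.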
